A study of Mus musculus with 8 samples.

Results

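The Ly6 genes Ly6a, Ly6c1, Ly6c2, Ly6e, Ly6g and Ly6i, chosen by name from the gene rows of the deposited matrices, were followed through single CD45+ cells of MC38 tumours. All 6 were listed in each of the 4 cDNA libraries, among 27405 genes in their union. MC38 is a line of mouse colon carcinoma cells, the host mice were wild type, and the CD45+ cells were sorted by flow cytometry. There were 2 libraries labelled LNP-Sirpa and 2 labelled CTRL. The series title names a tumour-directed degradation of SIRPα, an inhibitory receptor of phagocytes encoded by Sirpa. The labels give no age, dose or time, and do not say what the CTRL mice received, so targeting of Sirpa cannot be told apart from other effects of the treatment. Nor do they say whether each replicate is another animal, and the spread between libraries on which the p-values rest may be technical.

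Ly6 proteins are small, cysteine-rich proteins of the Ly6/uPAR superfamily that sit on the outer cell membrane by a glycosylphosphatidylinositol (GPI) anchor. Several are used to recognise blood cells in mice: Ly6a is the stem cell antigen Sca-1, which is also carried by T cells and fibroblasts, Ly6c2 encodes the Ly6C of inflammatory monocytes, and Ly6g marks neutrophils. Ly6a, Ly6c and Ly6e are known to respond to interferons in mouse leukocytes. The genes arose by duplication and lie close together, so neighbouring copies are alike in sequence.

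All 6 genes lie on chromosome 15. How far a read can tell them apart depends on that likeness, and the coding sequences of the closest pair, Ly6c1 and Ly6c2, were 97.7% identical in GENCODE M21, with 9 of 396 bases different. The first 150 coding bases hold 6 of these differences and are shown from the start codon, with the differing bases in capitals, to show how the copies differ.
Ly6c1: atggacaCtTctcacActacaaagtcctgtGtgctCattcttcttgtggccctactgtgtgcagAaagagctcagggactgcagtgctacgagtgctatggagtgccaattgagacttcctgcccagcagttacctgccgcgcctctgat
Ly6c2: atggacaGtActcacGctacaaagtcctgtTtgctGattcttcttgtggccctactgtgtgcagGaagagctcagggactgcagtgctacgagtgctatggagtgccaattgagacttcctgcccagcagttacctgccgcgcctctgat
Of all 100-base windows of the representative Ly6c1 transcript, 15.3% also stood letter for letter in Ly6c2, and 15.8% of the Ly6c2 windows stood in Ly6c1. In the last 500 bases, from which a polyA-primed library reads most, 6.23% of the windows were shared. No window of Ly6a, Ly6e, Ly6g or Ly6i was shared with another gene. Coding identity was 86.4% between Ly6a and Ly6i and 50% to 52.7% between Ly6e and the other members. Reads with mismatches could still be placed on the wrong copy, so the split between Ly6c1 and Ly6c2 is uncertain.

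The promoter table of RefSeq, on build GRCm38.p6, held 3 of the 6 members. The 250 bases before the first listed start site are shown to let the copies be compared, with the longest run that all 3 hold in capitals. They are from chr15:75048838-75049087 on the minus strand for Ly6c1, chr15:75111972-75112221 on the minus strand for Ly6c2 and chr15:75155011-75155260 on the plus strand for Ly6g.
Ly6c1 promoter: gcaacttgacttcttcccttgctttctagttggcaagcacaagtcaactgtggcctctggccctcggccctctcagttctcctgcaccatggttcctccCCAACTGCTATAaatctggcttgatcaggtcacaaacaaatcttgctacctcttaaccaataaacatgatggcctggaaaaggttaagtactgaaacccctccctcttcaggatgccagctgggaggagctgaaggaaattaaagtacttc
Ly6c2 promoter: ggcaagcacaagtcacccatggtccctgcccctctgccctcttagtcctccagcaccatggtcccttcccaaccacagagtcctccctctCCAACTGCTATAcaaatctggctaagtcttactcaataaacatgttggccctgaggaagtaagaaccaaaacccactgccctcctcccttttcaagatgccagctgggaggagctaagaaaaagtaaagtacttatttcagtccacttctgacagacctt
Ly6g promoter: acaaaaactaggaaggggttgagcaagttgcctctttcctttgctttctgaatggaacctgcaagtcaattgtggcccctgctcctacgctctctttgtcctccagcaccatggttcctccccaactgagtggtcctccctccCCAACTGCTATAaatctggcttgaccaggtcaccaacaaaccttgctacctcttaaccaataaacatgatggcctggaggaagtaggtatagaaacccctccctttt
The shared run is 12 bases long and ends 139 bases before the start site in Ly6c1, 148 in Ly6c2 and 95 in Ly6g. Over the stretches that align, Ly6c1 and Ly6g were 75.1% identical, Ly6c1 and Ly6c2 71.9%, and Ly6c2 and Ly6g 65.5%. The 300-base windows from 250 bases before to 50 after the listed starts held no GAAA followed by any 2 bases and GAAA, a core of the interferon-stimulated response element, and no TTCNNNGAA, the gamma-activated site, on either strand. Among all 32851 promoters of the table, 3.44% held the first of these patterns and 8.3% the TTCNNNGAA letters.

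The libraries held 85810250 and 70581678 unique molecular identifiers (UMIs) for LNP-Sirpa replicates 1 and 2, and 68654004 and 90789729 for CTRL replicates 1 and 2. After filtering, 10332 and 9005 LNP-Sirpa cells and 7504 and 10876 CTRL cells were kept. Barcodes are running numbers in each library, so 830 to 1242 names coincide between pairs of libraries and say nothing of shared cells. In monocytes and macrophages together, Sirpa stood at 466 and 347.5 CPM in LNP-Sirpa and at 555 and 552 CPM in CTRL libraries (log2 fold change -0.31 ± 0.19 SE, edgeR adjusted p = 0.418). CPM here are UMIs per 1000000 UMIs of a library's cells of that class.

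Cells were assigned to classes by UMIs of marker genes, none of them a Ly6 gene. Macrophages numbered 3268 and 3927 in LNP-Sirpa and 4657 and 6873 in CTRL libraries, and monocytes 704 and 854 against 240 and 155. Cells with phagocyte genes below both of these gates, called intermediate phagocytes, numbered 364 and 714 in LNP-Sirpa and 328 and 308 in CTRL libraries. Their 10 leading genes held no macrophage or monocyte marker. Monocytes were 16.2% and 15.5% of these phagocytes in LNP-Sirpa and 4.59% and 2.11% in CTRL libraries, so sums over all phagocytes hold different mixtures. CD8 T cells numbered 546 and 423 against 61 and 320, regulatory T cells 233 and 167 against 71 and 78, NK cells 240 and 45 against 125 and 85, dendritic cells 216 and 57 against 187 and 197, and fibroblasts 274 and 172 against 303 and 291, LNP-Sirpa before CTRL in each. Fibroblasts are not known to carry CD45, so these cells go against the label of the sort. Cells left without a class made up 37.2% and 24.9% of LNP-Sirpa and 18.8% and 22.1% of CTRL cells.

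**Figure D1:**
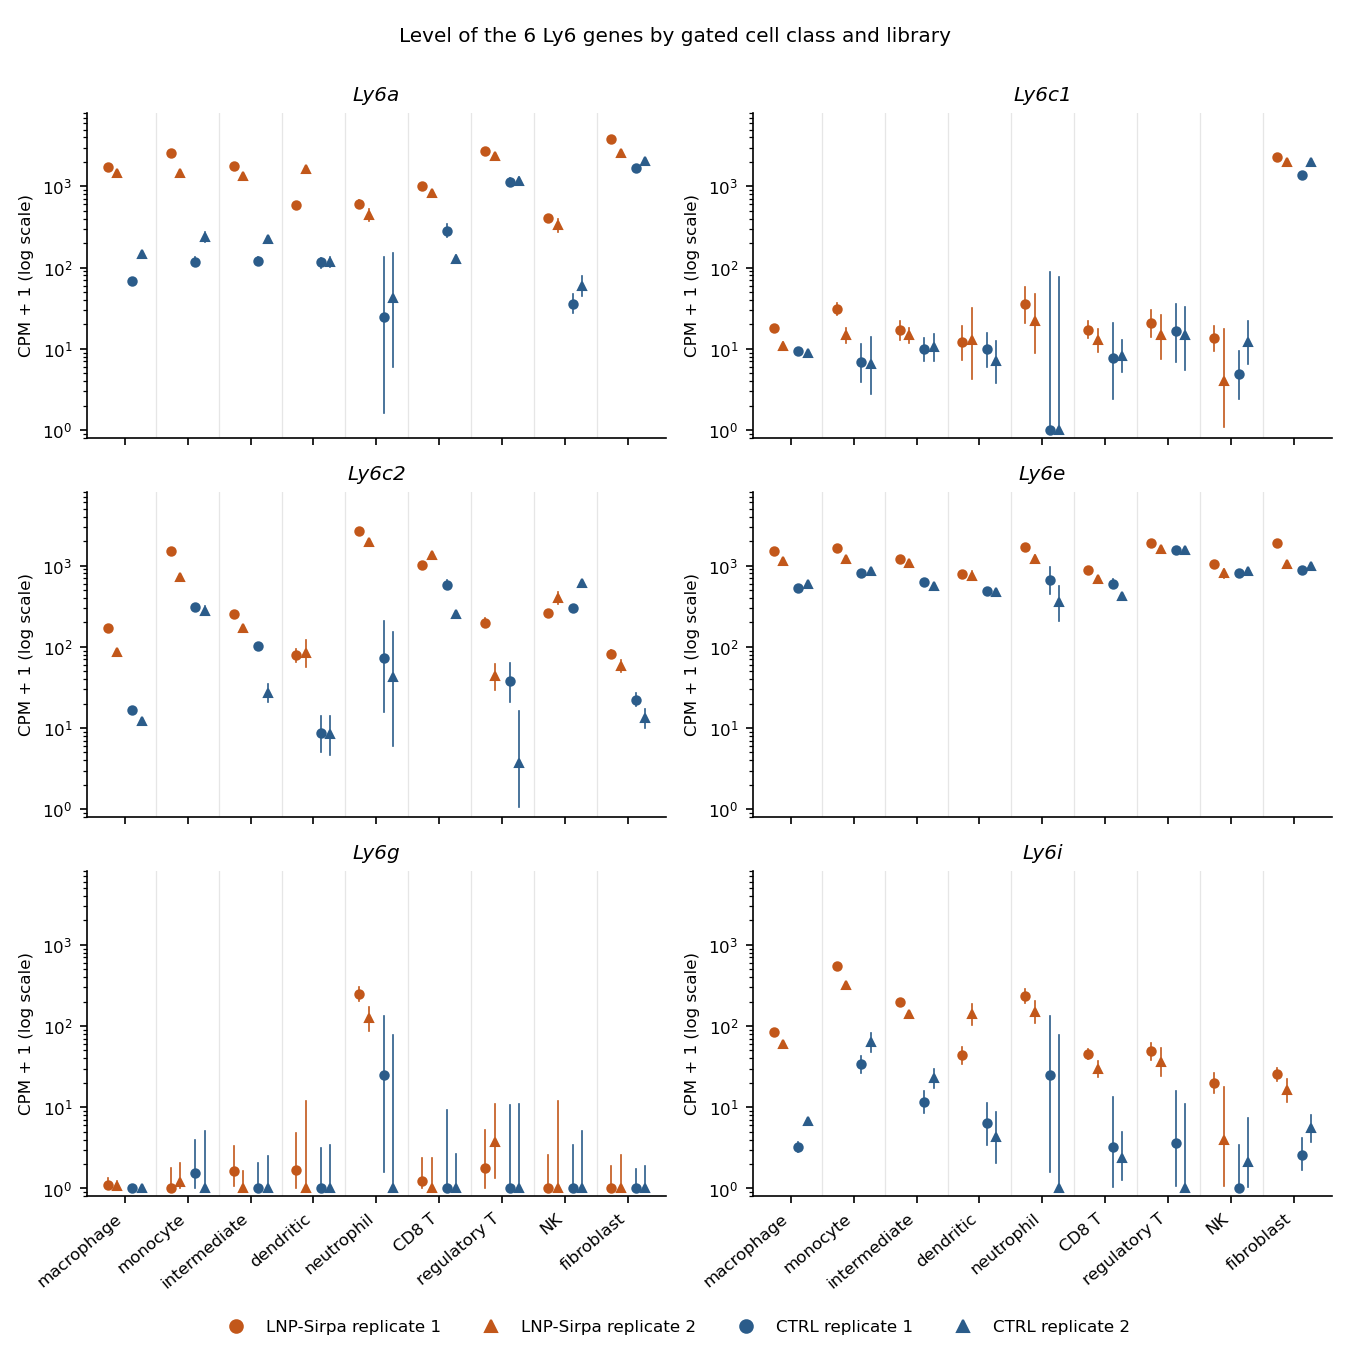
Level of each Ly6 gene (CPM + 1, log axis) in 9 gated classes, with LNP-Sirpa replicates in orange to the left and CTRL replicates in blue to the right; bars are 95% Poisson intervals, which cover counting error only. Ly6a and Ly6i stand higher in LNP-Sirpa than in CTRL points of nearly every class. Of the classes shown, Ly6c1 is high in fibroblasts alone and Ly6g in neutrophils alone.

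Ly6a was called higher in LNP-Sirpa in 7 of the 9 sums of cells tested, Ly6i in 7 of the 8 in which it was measured, Ly6c2 in 5, Ly6e in 2 and Ly6c1 in 0. Of 54 pairs of a member and a class, 43 passed the filter on low counts, 42 of these had a positive log2 fold change, and 21 passed the test, all higher in LNP-Sirpa (edgeR quasi-likelihood test, Benjamini-Hochberg adjusted over all genes of the class, n = 2 libraries per group). The median log2 fold change of all genes ran from -0.0271 to 0.00556 over the 9 sums. The sums are not independent. Monocytes and macrophages together hold the cells of the 3 single phagocyte classes, and all sums share the same libraries. A member that passed the filter only through the libraries where it is high had to differ, so these counts alone support nothing. Among the 21 that was so for Ly6i in CD8 T cells, in regulatory T cells and in fibroblasts. In CD8 T and regulatory T cells the CTRL libraries together held 4 UMIs and 1 UMI. In fibroblasts CTRL replicate 1, with 8 UMIs, lay below the filter's minimum, so the CTRL libraries alone would not have passed it. In monocytes and macrophages together 4 members rose (Ly6a, Ly6c2, Ly6e and Ly6i), where 1.52% of all genes tested rose and 2.07% changed in either direction. Of the single phagocyte classes, macrophages had 3 members higher against 0.242% of all genes (0.282% in either direction). Monocytes had 4 against 1.89% (2.41%), and intermediate phagocytes 2 against 1.68% (2.08%). The other classes gave 1 member in dendritic cells (0.171% of all genes higher, 0.205% in either direction) and 2 in CD8 T cells (0.34% and 0.418%). Regulatory T cells gave 2 (0.652% and 0.741%), NK cells 1 (0.287% and 0.407%) and fibroblasts 2 (0.83% and 0.916%). Apart from Ly6i, the only member called was Ly6a in CD8 T and regulatory T cells and Ly6c2 in fibroblasts. Ly6g passed the filter in no class, Ly6c1 did not in regulatory T cells and Ly6i did not in NK cells.

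**Figure D2:**
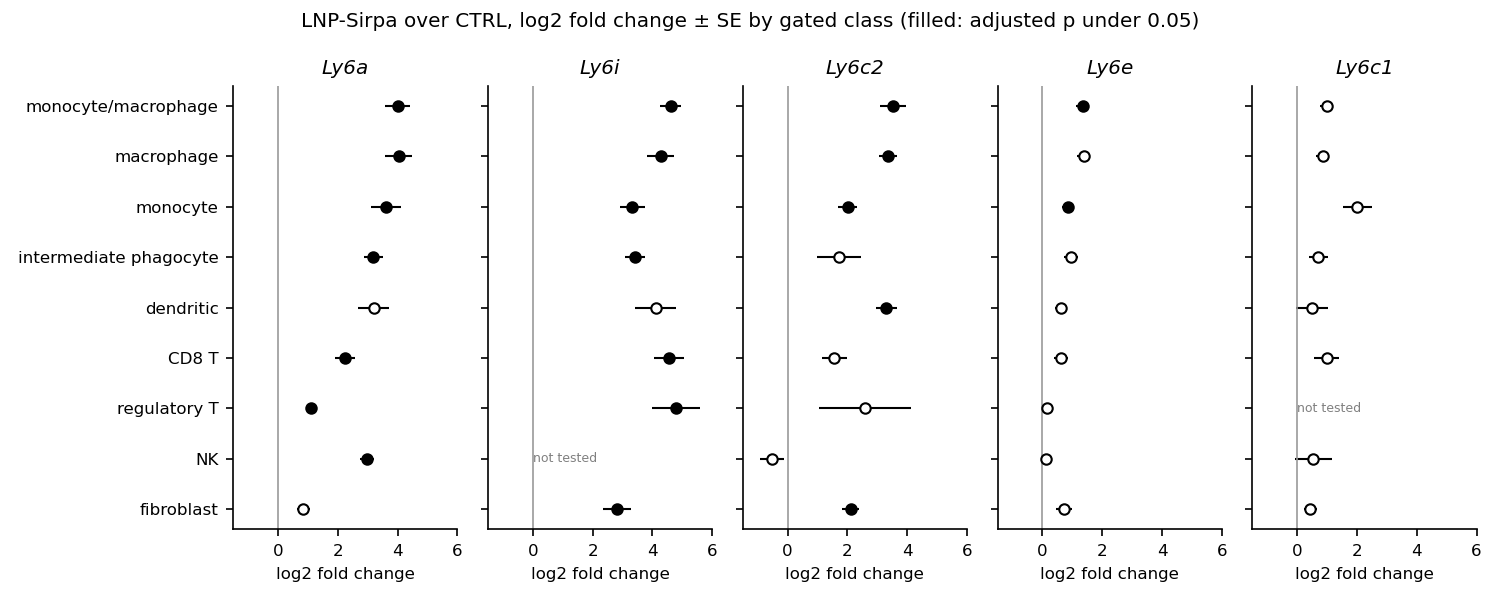
Log2 fold change of LNP-Sirpa over CTRL with its SE (x axis) for 5 Ly6 genes in 9 gated sums (y axis), from edgeR with n = 2 libraries per group; filled points passed an adjusted p of 0.05. Ly6i lies at 2.81 or more wherever it was tested. Ly6a reaches 4.04 in macrophages and stands at 1.11 in regulatory T cells and 0.84 in fibroblasts. The Ly6i points of CD8 T and regulatory T cells rest on 4 CTRL UMIs and 1 CTRL UMI. These, and the Ly6i points of dendritic cells and fibroblasts, passed the filter on low counts through the LNP-Sirpa libraries alone.

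Ly6a, the Sca-1 antigen, was found in most macrophages of LNP-Sirpa libraries, and in CTRL libraries stood highest in fibroblasts and regulatory T cells among the 8 classes tested apart. In macrophages it stood at 1723 and 1468 CPM in LNP-Sirpa libraries, against 66.9 and 145 CPM in CTRL libraries (log2 fold change 4.04 ± 0.44 SE, adjusted p = 0.0425). Both LNP-Sirpa libraries lay far above both CTRL libraries. After each cell was thinned to 2000 UMIs, 83.6% and 83.2% of LNP-Sirpa macrophages held a Ly6a UMI, against 8.59% and 15.9% of CTRL macrophages (unthinned 89.8% and 91.7% against 23.4% and 32.9%). The median thinned macrophage held 3 and 2 Ly6a UMIs in LNP-Sirpa and 0 and 0 in CTRL libraries, and the cell at the 90th percentile held 8 and 6 against 0 and 1.

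**Figure D3:**
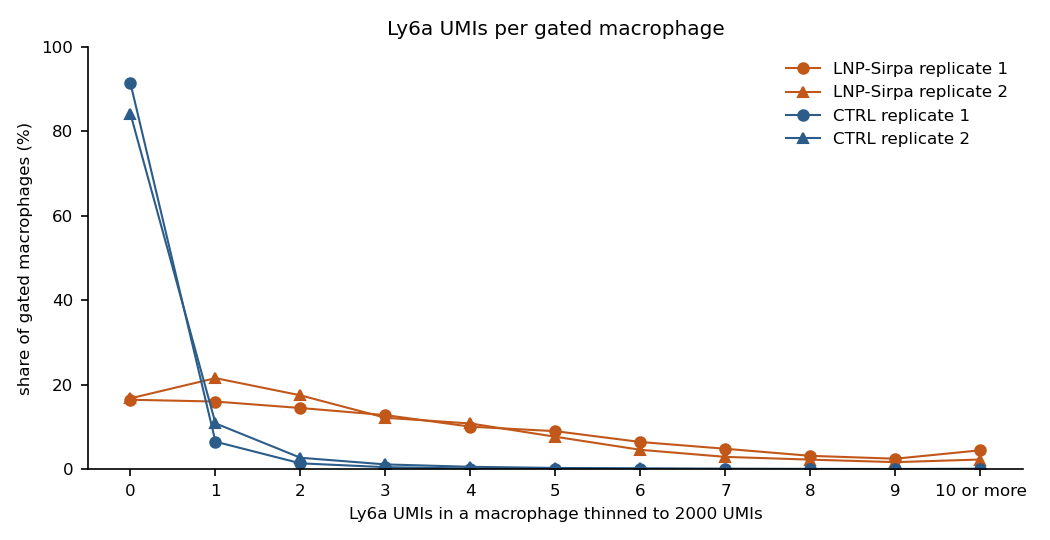
Share of gated macrophages (y axis, percent) by the number of Ly6a UMIs in a cell thinned to 2000 UMIs (x axis), 1 line per library. At 0 UMIs lie 16.4% and 16.8% of LNP-Sirpa macrophages, against 91.4% and 84.1% of CTRL macrophages.

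In monocytes Ly6a stood at 2592 and 1459 CPM in LNP-Sirpa and 118 and 236 CPM in CTRL libraries (3.61 ± 0.51, adjusted p = 0.0488). In intermediate phagocytes it stood at 1757 and 1341 CPM against 121 and 225 CPM (3.18 ± 0.32, adjusted p = 0.000327). The groups did not overlap in any of these classes. Without CTRL replicate 1, the adjusted p was 0.149 in macrophages (3.56) and 0.0662 in monocytes (3.13), so neither call held. It was 0.0576 with the stricter macrophage gate (4.10) and 0.0546 in monocytes with other size factors (3.61).

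Markers of other cells also differed between the groups within macrophages. The 8 endothelial markers summed to 20.8 and 24.5 CPM in LNP-Sirpa and 4.43 and 4.40 CPM in CTRL macrophages, the 8 T cell markers to 89.2 and 49.9 CPM against 26.8 and 40.1 CPM, and the 8 B cell markers to 8.02 and 4.77 CPM against 23.4 and 21.3 CPM. The monocyte and neutrophil lists, of 10 genes each, summed to 531 and 456 CPM against 245 and 242 CPM and to 216 and 143 CPM against 56.2 and 72.7 CPM. Every gene of these lists was detected. Their part in the results for Ly6a, Ly6c2, Ly6e and Ly6i in macrophages was not tested.

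Among lymphocytes, Ly6a rose in CD8 T cells, regulatory T cells and NK cells. NK cells held 410.0 and 330.1 CPM in LNP-Sirpa and 35.1 and 58.8 CPM in CTRL libraries (2.99 ± 0.24, adjusted p = 2.28e-05). CD8 T cells held 1015 and 835 CPM against 284 and 128 CPM (2.23 ± 0.34, adjusted p = 0.0328). Regulatory T cells, the suppressive T cells that carry Foxp3, held 2699 and 2334 CPM against 1137 and 1173 CPM (1.11 ± 0.19, adjusted p = 0.00451). Every regulatory T library stood above every CD8 T library of its group, and 97.2% and 97.3% of LNP-Sirpa regulatory T cells held a Ly6a UMI after thinning, against 79.1% and 84.1% in CTRL. In these 3 classes the call held under every alternative tried.

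RNA freed from other cells can add UMIs to any class. The macrophage genes C1qa, C1qb and C1qc stood in CD8 T cells at 7.42% and 7.05% of their macrophage level in LNP-Sirpa and 10.0% and 9.0% in CTRL libraries. Ly6a stood there at 58.9% and 56.9% of its macrophage level in LNP-Sirpa and at 425% and 88.3% in CTRL libraries. In NK cells the C1q genes stood at 5.03% and 5.54% in LNP-Sirpa and 7.43% and 7.51% in CTRL libraries, and Ly6a at 23.8% and 22.5% against 52.4% and 40.6%. In each library and both classes Ly6a thus stood at a larger share of its macrophage level than the C1q genes did. Free Ly6a can also come from classes that hold more of it than macrophages. Its CTRL means were 1872 CPM in fibroblasts and 1155 CPM in regulatory T cells, against 106 CPM in macrophages. The C1q share therefore cannot bound free Ly6a, whose part was not tested. That limit also holds where C1q genes are set beside Ly6i or Ly6c2 below.

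In dendritic cells Ly6a stood at 583 and 1645 CPM in LNP-Sirpa and 115 and 116 CPM in CTRL libraries, with no overlap (3.20 ± 0.52, adjusted p = 0.0993). The LNP-Sirpa libraries differed in makeup: cDC2, one of the conventional dendritic subsets, made up 23 of 216 and 20 of 57 cells and stood at 742 and 2829 CPM. Fibroblasts, in which Sca-1 marks connective tissue progenitors, held 3810 and 2574.5 CPM in LNP-Sirpa and 1684 and 2061 CPM in CTRL libraries (0.84 ± 0.21, adjusted p = 0.146). Fibroblasts held 10.2% and 6.11% of all Ly6a UMIs of the LNP-Sirpa libraries, against 47.3% and 32.2% in CTRL, and monocytes and macrophages together 42.1% and 67.8% in LNP-Sirpa, against 18.7% and 31.7% in CTRL.

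By level among the 8 classes tested apart, each class of the LNP-Sirpa libraries from fibroblasts (mean 3192 CPM of Ly6a) down to CD8 T cells (925 CPM) overlapped with its neighbour in the order, and NK cells (370.1 CPM) stood below all. Among the same 8 classes, CTRL libraries placed fibroblasts first (1872 CPM) and regulatory T cells second (1155 CPM), each clear of the next class. There CD8 T cells (206 CPM), monocytes (177 CPM) and intermediate phagocytes (173 CPM) overlapped in their ranges, and NK cells came last (46.9 CPM).

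Ly6i, a little-studied member, is close to Ly6a in sequence, and among those 8 classes it stood highest in monocytes. There it stood at 542 and 319.7 CPM in LNP-Sirpa libraries, against 32.9 and 62.6 CPM in CTRL libraries (3.32 ± 0.42, adjusted p = 0.0223). Intermediate phagocytes held 197 and 141 CPM against 10.6 and 22.0 CPM (3.42 ± 0.32, adjusted p = 0.000327), and macrophages 84.4 and 59.8 CPM against 2.23 and 5.69 CPM (4.28 ± 0.45, adjusted p = 0.0425). Among the 8 classes tested apart, the order in both groups was monocytes, then intermediate phagocytes, then dendritic cells and macrophages. Ly6i was itself among the 10 genes that most set gated monocytes apart from the other classes, although no gate used it.

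A Ly6i UMI was found in 49.4% and 30.9% of thinned LNP-Sirpa monocytes and in 6.99% and 8.16% of CTRL monocytes. In macrophages the shares were 10.7% and 8.85% in LNP-Sirpa and 0.455% and 0.788% in CTRL libraries. Leaving out CTRL replicate 1 gave 2.81 (adjusted p = 0.0846) in monocytes, and the stricter gate gave 3.82 (adjusted p = 0.0684) in macrophages, so neither call held there.

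Outside the phagocytes Ly6i was low. CD8 T cells held 182 and 75 Ly6i UMIs in LNP-Sirpa and 1 and 3 in CTRL libraries, a ratio of 25.7 in CPM with a 95% exact interval for counting of 9.90 to 94.9. Regulatory T cells held 63 and 26 UMIs against 1 and 0, a ratio of 32.5 (5.68 to 1300). In both classes Ly6i passed the filter on low counts through the LNP-Sirpa libraries alone, so no p is given. NK cells held 44 and 1 UMIs against 0 and 1, so a single LNP-Sirpa library carried that difference, and it was not tested. Ly6i in CD8 T cells stood at 53.1% and 47.8% of its macrophage level in LNP-Sirpa, beside 7.42% and 7.05% for the C1q genes. Fibroblasts held 24.4 and 15.2 CPM against 1.60 and 4.53 CPM (2.81 ± 0.46). Dendritic cells held 42.8 and 140 CPM against 5.35 and 3.33 CPM (4.11 ± 0.70). In fibroblasts and dendritic cells too Ly6i passed the filter through the LNP-Sirpa libraries alone, so no p is given. The fibroblast call counted above was lost without CTRL replicate 1 (2.17), CTRL replicate 2 (3.75) or LNP-Sirpa replicate 1 (2.46).

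Ly6c2, the Ly6C of inflammatory monocytes and of some CD8 T cells, rose in monocytes, macrophages, dendritic cells and fibroblasts. Monocytes held 1498.5 and 727 CPM in LNP-Sirpa and 308 and 278 CPM in CTRL libraries (2.01 ± 0.32, adjusted p = 0.0279). A Ly6c2 UMI was present in 61.2% and 44.1% of thinned LNP-Sirpa monocytes and in 26.6% and 25.9% of CTRL monocytes. Macrophages held 169 and 86.2 CPM against 15.8 and 11.1 CPM (3.36 ± 0.30, adjusted p = 0.0345), with a UMI in 15% and 10.2% of thinned cells against 1.49% and 1.26%. The groups were apart in both classes. Leaving out CTRL replicate 1 or 2 ended the call in monocytes (2.03 and 2.00, adjusted p = 0.379 and 0.198) and in macrophages (3.58 and 3.17, adjusted p = 0.135 and 0.0573). The stricter macrophage gate gave 2.96 (adjusted p = 0.054).

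In intermediate phagocytes Ly6c2 stood at 251 and 168 CPM in LNP-Sirpa and 100.2 and 26.1 CPM in CTRL libraries (1.72 ± 0.72, adjusted p = 0.458). Dendritic cells held 77.3 and 83.4 CPM against 7.72 and 7.33 CPM (3.30 ± 0.34, adjusted p = 0.0132), from 112 and 28 UMIs against 13 and 11. The LNP-Sirpa UMIs came from different subsets. Replicate 1 held 68 in cDC1, another conventional subset, 33 in mature dendritic cells and 11 in cDC2. Replicate 2 held all 28 in cDC2, so the near-equal CPM of the 2 libraries rest on unlike cells. With the stricter gate Ly6c2 did not pass the filter on low counts in dendritic cells. Fibroblasts held 80.0 and 56.9 CPM against 21.5 and 12.2 CPM (2.10 ± 0.28, adjusted p = 0.0187), a call that was lost without CTRL replicate 1 (2.53, adjusted p = 0.074) or CTRL replicate 2 (1.82, adjusted p = 0.101). Ly6c2 in fibroblasts stood at 47.4% and 66.0% of its macrophage level in LNP-Sirpa and at 136% and 109% in CTRL libraries, beside 3.85% and 5.26%, and 6.03% and 5.44%, for the C1q genes. Fibroblasts held 322 and 135 Ly6c2 UMIs in LNP-Sirpa and 107 and 51 in CTRL libraries. Beside these stood 9322 and 4798 UMIs of the near-identical Ly6c1 in LNP-Sirpa and 6806 and 8403 in CTRL libraries. The part of misplaced Ly6c1 reads in the fibroblast call was not tested.

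Lymphocytes differed from one another in Ly6c2. CD8 T cells held 1017 and 1345 CPM in LNP-Sirpa and 579.8 and 253 CPM in CTRL libraries (1.55 ± 0.42, adjusted p = 0.289). The groups did not overlap in CPM, but the share of thinned cells with a UMI did, at 46.2% and 60.8% against 51.7% and 18.4%. CTRL replicate 1 held only 61 CD8 T cells. NK cells held 263 and 402 CPM against 301 and 608 CPM, with overlapping groups (-0.52 ± 0.40, adjusted p = 0.778), and this value changed sign without CTRL replicate 2 (0.07) and with the stricter gate (0.05). Regulatory T cells held 197 and 42.3 CPM against 36.9 and 2.74 CPM (2.59 ± 1.54, adjusted p = 0.797). Among the 8 classes tested apart, CD8 T cells of the LNP-Sirpa libraries (mean 1181 CPM) and monocytes (1113 CPM) came first and overlapped. In CTRL libraries, of the same 8, NK cells (454 CPM), CD8 T cells (417 CPM) and monocytes (293 CPM) overlapped in turn.

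Ly6c1, near-identical to Ly6c2, followed another map: it is known from endothelial cells and fibroblasts, and here fibroblasts carried it. Fibroblasts held 2317 and 2022 CPM in LNP-Sirpa and 1365 and 2004.5 CPM in CTRL libraries (0.44 ± 0.22, adjusted p = 0.447). The lowest LNP-Sirpa library lay close to the highest CTRL library. Fibroblasts were 1.91% to 4.04% of kept cells and held 63.0% and 63.5% of all Ly6c1 UMIs in LNP-Sirpa and 75.1% and 64.9% in CTRL libraries. Most of the rest lay outside the classes named here. In LNP-Sirpa replicate 1, for example, monocytes and macrophages together held 639 of 14794 Ly6c1 UMIs. Gated endothelial cells, only 5 and 2 in LNP-Sirpa libraries, held 0 Ly6c1 UMIs in both, beside 77 and 24 of Ly6c2. The highest value in another tested class was 30.0 CPM, in monocytes of LNP-Sirpa replicate 1.

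In the tested classes other than fibroblasts Ly6c1 was near the level at which other fibroblast transcripts were found there. In the phagocyte, dendritic, T and NK classes it stood at 0.147% to 1.30% of its fibroblast level, while the 8 fibroblast markers, Col1a1, Col1a2, Col3a1, Dcn, Lum, Pdgfra, Sparc and Bgn, summed to 0.344% to 0.965% of theirs in the same classes. Among these tested classes the highest Ly6c1 share, 1.30% in monocytes of LNP-Sirpa replicate 1, stood beside 0.638% for that list. In neutrophils, which were not tested, Ly6c1 stood at 1.504% and 1.05% of its fibroblast level in LNP-Sirpa and at 0 in both CTRL libraries, beside 0.908% and 0.470% against 1.70% and 1.01% for that list. In monocytes Ly6c1 was at 30.0 and 13.7 CPM in LNP-Sirpa and 5.84 and 5.59 CPM in CTRL libraries, or 144 and 74 UMIs against 11 and 5 (2.01 ± 0.47, adjusted p = 0.0537). Of all Ly6c1 and Ly6c2 UMIs in monocytes, Ly6c1 made up 1.96% and 1.85% in LNP-Sirpa and 1.86% and 1.97% in CTRL libraries, the CTRL shares from 11 and 5 Ly6c1 UMIs. In macrophages that share was 9.09% and 10.3% against 34.8% and 41.1%. The part of misplaced Ly6c2 reads in this was not tested. In macrophages Ly6c1 stood at 16.9 and 9.91 CPM against 8.41 and 7.78 CPM (0.85 ± 0.22, adjusted p = 0.13).

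**Figure D4:**
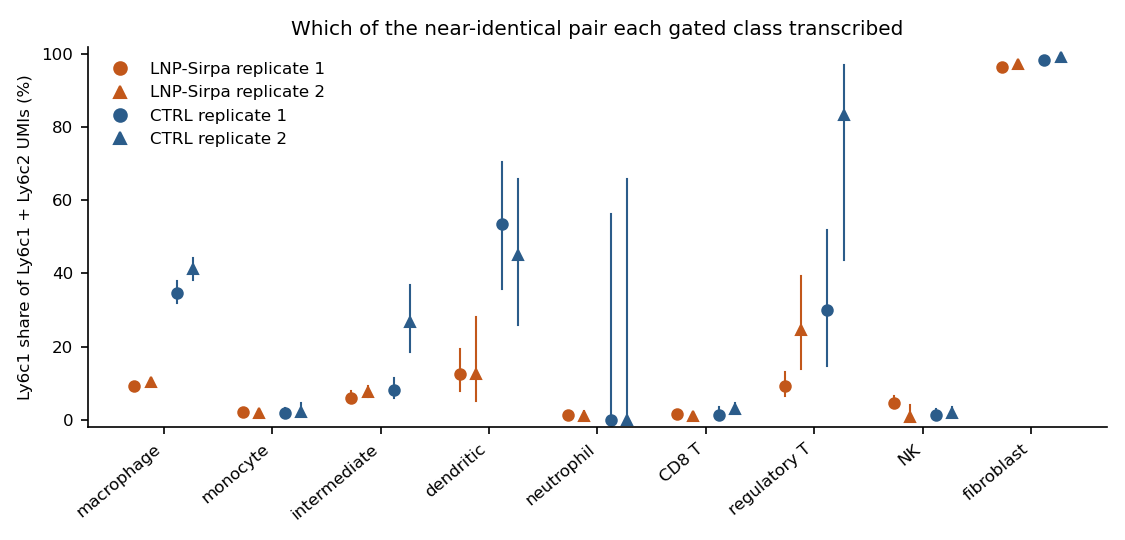
Share of Ly6c1 in the summed Ly6c1 and Ly6c2 UMIs (y axis, percent) by gated class, with LNP-Sirpa replicates in orange left of CTRL replicates in blue; bars are 95% Wilson intervals for counting error. Fibroblasts lie above 96% and monocytes near 2% in all 4 libraries, and wide bars mark classes with few UMIs.

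Ly6e, the most evenly spread member, acts in the mouse placenta as the receptor of syncytin-A and is induced by interferon. It was found in every class, with smaller fold changes than Ly6a. In monocytes and macrophages together it stood at 1498 and 1127 CPM in LNP-Sirpa and 548 and 589 CPM in CTRL libraries (1.34 ± 0.22, adjusted p = 0.0412). Monocytes alone held 1629 and 1200 CPM against 818 and 848 CPM (0.85 ± 0.19, adjusted p = 0.0392), and macrophages alone 1508 and 1126 CPM against 528 and 586 CPM (1.37 ± 0.23, adjusted p = 0.0702). A UMI was present in 90.5% and 83.2% of thinned LNP-Sirpa macrophages, against 58.0% and 60.3% of CTRL macrophages. Leaving out CTRL replicate 1 or 2 ended the joint call (1.25 and 1.43, adjusted p = 0.417 and 0.224) and the monocyte call (0.77 and 0.93, adjusted p = 0.441 and 0.204).

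Regulatory T cells had the highest mean Ly6e level of the 8 classes tested apart in both groups. They held 1897 and 1612 CPM in LNP-Sirpa and 1571 and 1535 CPM in CTRL libraries, with no overlap but no call (0.16 ± 0.18, adjusted p = 0.862). NK cells held 1049 and 803 CPM against 815 and 849 CPM, which overlapped (0.11 ± 0.18, adjusted p = 0.91). CD8 T cells held 871 and 691 CPM against 599.9 and 418 CPM (0.63 ± 0.22, adjusted p = 0.353), dendritic cells 786 and 748 CPM against 487 and 466 CPM (0.61 ± 0.19, adjusted p = 0.265), and fibroblasts 1870 and 1032 CPM against 871 and 975 CPM (0.72 ± 0.25, adjusted p = 0.298).

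Ly6g, the antigen of neutrophils, was confined to a few cells. The whole libraries held 198 and 53 Ly6g UMIs in LNP-Sirpa and 3 and 3 in CTRL. Gated neutrophils numbered 147 and 111 in LNP-Sirpa and 18 and 16 in CTRL libraries, too few for the test. They held 114 and 35 Ly6g UMIs, or 248 and 124 CPM, in LNP-Sirpa and 1 and 0 UMIs in CTRL libraries. Summed over the libraries the ratio was 18.1, with a 95% exact counting interval of 3.21 to 721, and the 0 in CTRL replicate 2 allows up to 62.0 CPM. None of the 8 classes tested apart held more than 3 Ly6g UMIs in a library. Most of the LNP-Sirpa Ly6g UMIs not in gated neutrophils thus lay outside these classes. The 2 groups of neutrophils were unlike in other genes too: the 10 monocyte markers summed to 4985 and 3541 CPM in LNP-Sirpa and 1817 and 579 CPM in CTRL neutrophils, and the 10 neutrophil markers to 156480 and 105090 CPM against 83268 and 53573 CPM.

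Neutrophils of the LNP-Sirpa libraries also held other members. Ly6c2 stood there at 2690 and 1941 CPM in LNP-Sirpa and, from 3 and 2 UMIs, at 71.7 and 41.4 CPM in CTRL libraries, a ratio of 43.4 (18.6 to 134). Ly6a gave 278 and 126 UMIs against 1 and 2, a ratio of 16.4 (5.57 to 79.8), and Ly6i 108 and 42 against 1 and 0, a ratio of 18.3 (3.23 to 726). Ly6c1 gave 16 and 6 UMIs in LNP-Sirpa and 0 and 0 in CTRL neutrophils. Ly6e stood at 1716 and 1206 CPM against 670 and 351.5 CPM. These values compare few cells and carry no test.

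The effects differed between classes for Ly6e and Ly6i. A test of the difference of effects was run for 35 pairs of a member and a contrast over 7 contrasts, and 3 passed after adjustment over all genes, while 13 had an unadjusted p under 0.01. The Ly6e effect was lower in NK cells than in monocytes and macrophages, with a log2 difference of -1.23 ± 0.21 (adjusted p = 0.00213, where 0.483% of all genes differed), and lower in regulatory T cells, with one of -1.12 ± 0.21 (adjusted p = 0.0124, 0.34% of all genes). The Ly6i effect was lower in monocytes than in macrophages, with a difference of -1.09 ± 0.22 (adjusted p = 0.0117, 0.756% of all genes). For Ly6a, the effect in fibroblasts minus that in monocytes and macrophages was -3.22 ± 0.69 (adjusted p = 0.0757) and in regulatory T cells -2.88 ± 0.70 (adjusted p = 0.226). For Ly6c2 in NK cells it was -4.19 ± 0.90 (adjusted p = 0.102). Without CTRL replicate 1 the NK value was -1.13 (adjusted p = 0.131), the regulatory T value -0.97 (adjusted p = 0.522) and the Ly6i value -0.88 (adjusted p = 0.273), so each of the 3 calls was lost. The regulatory T call was also lost without LNP-Sirpa replicate 1 (-1.08, adjusted p = 0.0671) and the Ly6i call without LNP-Sirpa replicate 2 (-0.89, adjusted p = 0.119).

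UMIs of several members were also found in the same phagocyte. At 2000 UMIs a cell, 30.6% and 21.3% of LNP-Sirpa phagocytes held UMIs of 3 or more members, against 0.887% and 1.11% of CTRL phagocytes. The share of all phagocytes with none of the 6 was 2.59% and 5.37% in LNP-Sirpa and 37.4% and 33.7% in CTRL libraries.

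Within each library, Ly6a, Ly6c2, Ly6e and Ly6i stood higher in phagocytes with over 5 UMIs of interferon-induced genes than in those with 0. The bins hold monocytes, macrophages and intermediate phagocytes together, and the share of each class in a bin was not measured. In LNP-Sirpa libraries Ly6c2 had a mean of 1113 CPM in monocytes and 127 CPM in macrophages, and Ly6i 431 and 72.1 CPM. The part of class makeup in the order of the bins was not tested. Phagocytes were split by their UMIs of 10 type I interferon genes (Isg15, Ifit1, Ifit2, Ifit3, Rsad2, Usp18, Cmpk2, Irf7, Ifi44 and Oasl2) after thinning. In cells with 0 such UMIs, Ly6a stood at 1064 and 1125 CPM in LNP-Sirpa and 55.0 and 93.9 CPM in CTRL libraries, and in cells with over 5 it stood at 2106 and 1731 CPM against 261 and 608 CPM. Cells with 0 interferon-gene UMIs thus held more Ly6a in LNP-Sirpa than cells with over 5 in CTRL. Such cells with 0 UMIs were 3.06% and 34.6% of LNP-Sirpa and 72.3% and 72.1% of CTRL phagocytes, and those with over 5 were 50.8% and 11.8% against 1.95% and 2.75%, so the 2 LNP-Sirpa libraries were unlike in this.

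Ly6i stood in LNP-Sirpa libraries at 124 and 82.3 CPM with 0 interferon-gene UMIs and at 212 and 225 CPM with over 5. In CTRL libraries it stood at 3.98 and 5.08 CPM with 0 and, from 2 and 4 UMIs, at 11.4 and 11.4 CPM with over 5. Ly6c2 stood in LNP-Sirpa at 338 and 134 CPM with 0 and 599.5 and 589 CPM with over 5, against 24.98 and 10.7 CPM and 205 and 48.3 CPM in CTRL libraries. Ly6e stood at 1222 and 960.0 CPM and 1575 and 1174.5 CPM in the same bins of LNP-Sirpa, against 509 and 548 CPM and 983 and 784 CPM in CTRL libraries. The bins between did not always follow that order. With 1 to 2 interferon-gene UMIs, LNP-Sirpa replicate 1 held Ly6c2 at 256 CPM and Ly6i at 106 CPM, both below its bin with 0. Ly6i in CTRL replicate 2 stood at 11.9 CPM with 1 to 2 and 6.61 CPM with 3 to 5. Ly6c1 had no such order, and in CTRL replicate 1 stood at 8.73 CPM with 0, 7.98 CPM with 1 to 2 and 6.29 CPM with 3 to 5. These are descriptions, with cells of 1 library sharing their source.

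**Figure D5:**
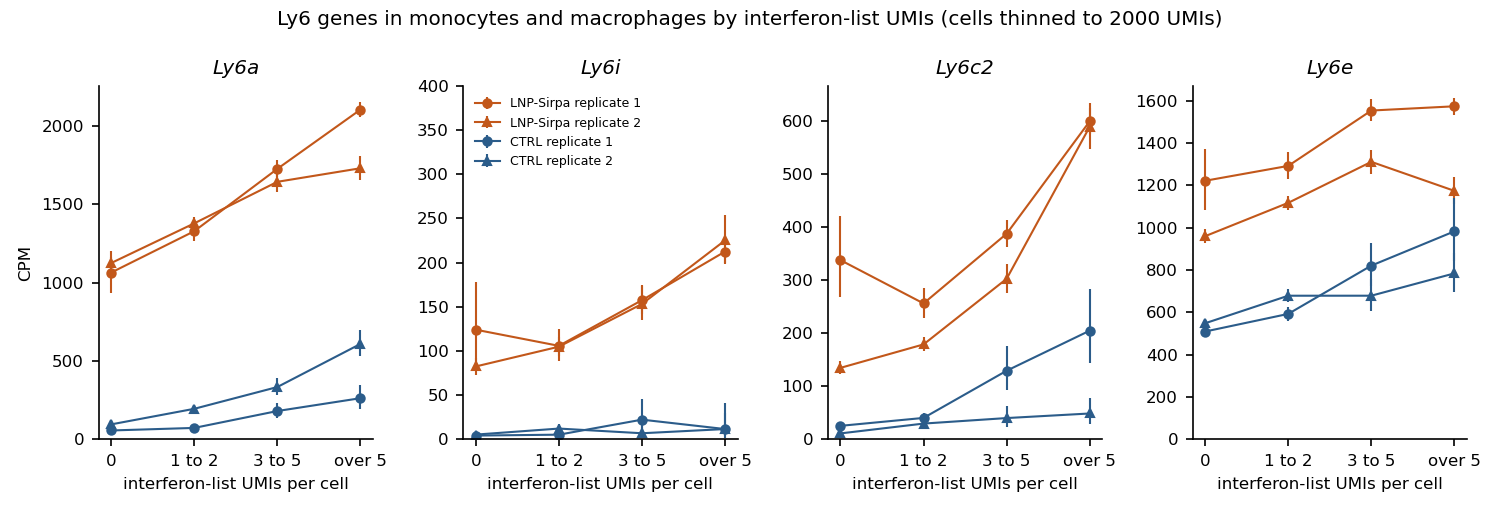
CPM of 4 Ly6 genes (y axis) in monocytes, macrophages and intermediate phagocytes binned by UMIs of 10 interferon genes per cell thinned to 2000 UMIs (x axis); bars are 95% Poisson intervals for counting error. The LNP-Sirpa lines lie above the CTRL lines in every bin for each gene, also at 0 interferon-gene UMIs, a count that does not mean the transcripts were absent.

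Of 30 other genes of the Ly6/uPAR superfamily, 10 were measured in monocytes and macrophages together and 0 passed in either direction, with a median log2 fold change of 0.08, beside -0.01 for all genes and 2.07% of all genes called. At an adjusted p above the threshold, Plaur, the urokinase receptor, stood at 0.62 ± 0.22 (adjusted p = 0.186), and Cd59a, which guards cells against complement, at -1.09 ± 0.31 (adjusted p = 0.121). Of 30 genes that build and attach GPI anchors, 29 were measured and 0 passed, with a median of -0.13. At that share of all genes, 0 calls among 10 or 29 genes cannot be told apart from the background. Both lists gave 0 calls in each of the other classes, where 1 to 10 and 12 to 29 of their genes were measured and 0.205% to 2.41% of all genes were called.

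Of the 10 type I interferon genes, 6 rose in monocytes and macrophages together (median 2.94), among them Isg15, a ubiquitin-like modifier, at 3.20 ± 0.52 (adjusted p = 0.043) and Irf7, a transcription factor of the interferon response, at 2.66 ± 0.43 (adjusted p = 0.0419). None of the 10 passed in macrophages alone (median 3.00) and 1, Rsad2, passed in monocytes. Of 10 genes known from the response to interferon gamma, 2 rose in monocytes and macrophages together, Cxcl10, a chemokine for T cells, at 1.80 ± 0.24 (adjusted p = 0.0325) and Socs1, a brake on cytokine signalling, at 1.78 ± 0.26 (adjusted p = 0.0357). Of that list 0 of 10 passed in macrophages, 1 of 9 in monocytes and 2 of 9 in intermediate phagocytes. In fibroblasts 5 of 9 measured genes of the interferon gamma list and 2 of 10 of the type I list rose, beside 0.83% of all genes. Dendritic cells gave 3 of 9 and 1 of 9 beside 0.171%, CD8 T cells 2 of 9 and 1 of 9 beside 0.34%, regulatory T cells 2 of 7 and 1 of 6 beside 0.652%, and NK cells 1 of 7 and 0 of 8 beside 0.287%. Type I genes gave 0 of 10 in intermediate phagocytes, where 1.68% of all genes rose. Over the 5 classes outside the phagocytes the interferon gamma list had medians from 0.56 to 2.19.

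Other genes followed the members over 32 sums, 8 classes in each of 4 libraries, by Pearson's r of log2(CPM + 10) among 5451 genes. The sums share libraries and depth, so r is a description. Ly6a was most like Zcrb1 (0.83), Fkbp1a (0.83), the GTPase Igtp (0.82), Snrnp27 (0.81) and the GTPase Irgm2 (0.81). Ly6e was most like Igtp (0.83), Ddx24 (0.79), Mtdh (0.78), Rtp4 (0.77) and Dnaja2 (0.76). Ly6i was most like Nos2 (0.93), the inducible nitric oxide synthase, then Ms4a8a (0.89), Fpr2, a formyl peptide receptor (0.89), Grina (0.89) and Fbxl5 (0.89). Ly6c2 was most like Plac8 (0.88), one of the markers that chose the monocytes, then Itga1, an integrin chain (0.81), Magohb (0.75), Prdx6 (0.73) and Atp8b4 (0.72). Ly6c1 was most like Steap2 (0.99), Fzd2, a Wnt receptor (0.99), Fermt2 (0.99), Nnmt (0.99) and Npdc1 (0.99). Among the members themselves, Ly6a and Ly6e gave the highest r (0.76) and Ly6c1 and Ly6c2, despite their near-identical sequence, the lowest (-0.26).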

How the data were processed

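The deposited files held raw UMI counts per gene and cell for 4 cDNA libraries, made by the authors with PISA 1.0 per the file headers; STAR 2.5.1b and build GRCm39 stand in the submitters' processing notes. Annotation and cell calling: not given in the sources used here. The 4 oligo libraries were not analysed here. Of 37757 barcodes, 37717 had 500 UMIs and 300 genes or more and no more than 15% mitochondrial UMIs, and these were kept.

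Classes were gated by marker UMIs per 10000 UMIs of a cell, with at least 5 own UMIs, for example 60 for macrophages and 10 for monocytes. The markers stand apart from the members, and the minimums were set after the data were seen. Cells above the limit for markers of another lineage were left without a class, but not every pair of lineages had such a limit. Macrophages had none on monocyte or dendritic markers, T cells none on NK markers and fibroblasts none on endothelial markers. NK cells had a limit on CD3 genes but not on the other T cell markers. Monocytes, dendritic cells and neutrophils could hold macrophage markers below 60 per 10000 UMIs. No doublet caller was run. Counts were summed per library and class, and classes with at least 20 cells in every library were tested with edgeR 4.0.16 (TMM, filterByExpr, robust quasi-likelihood F test) in R 4.3.3, with Benjamini-Hochberg adjustment over all genes of the class at 0.05 (limma 3.58.1 was loaded with it). Differences of effects came from 1 model over all class sums with terms for library, class and class by treatment. DESeq2 1.42.0 was an alternative, beside other size factors, no filter, a replicate block, stricter gates, thinned cells and each library left out. Poisson, exact and Wilson intervals at 95% and the floor of 3 counts cover counting error only. Levels are compared within a gene, since the UMIs come from transcript ends.

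The genes named are all 6 members, genes of the superfamily and GPI anchor lists past the threshold, of which there were 0, and the 5 genes most like each tested member; Plaur and Cd59a and the interferon genes with values were chosen after their values were seen. The members and lists were chosen with earlier results of these data known. Transcripts are from GENCODE M21 and promoters from RefSeq on GRCm38.p6, while the counts use GRCm39, so no coordinate was carried between builds. Python 3.11.15, numpy 2.4.6, pandas 2.3.3, scipy 1.17.1, Biopython 1.88 and matplotlib 3.10.9 were used.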

Additional observations from a re-analysis of the deposited data

Results flagged for a closer look

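The effect of the treatment on Ly6e was smaller in NK cells than in monocytes and macrophages, with a log2 difference of -1.23, and smaller in regulatory T cells, with one of -1.12. The effect on Ly6i was smaller in monocytes than in macrophages, with a difference of -1.09. In each case the difference itself passed an edgeR test adjusted over all genes, and no longer did without CTRL replicate 1.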

How the results depend on the processing

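The 21 member results past the threshold kept their direction in all 206 alternatives and were no longer past it in 35. Among them, Ly6i in CD8 T cells, regulatory T cells and fibroblasts passed the filter through the LNP-Sirpa libraries alone. Their part in these counts therefore supports nothing. Called in every alternative run were Ly6a in NK, CD8 T and regulatory T cells and in intermediate phagocytes, and Ly6i in intermediate phagocytes and in monocytes and macrophages together. Of the 22 others, 55 of 212 alternatives passed the threshold and 5 changed sign: Ly6c2 in NK cells was 0.054 with the stricter gate, and with 1 library left out the NK values ran from -1.19 (without LNP-Sirpa replicate 1) to 1.30 for Ly6c1, from -0.95 to 0.071 (without CTRL replicate 2) for Ly6c2 and from -0.048 (without LNP-Sirpa replicate 1) to 0.25 for Ly6e. Ly6c1 was also below 0, at -0.23, without CTRL replicate 1. The cause was not tested. Of 18 alternatives of the 3 called differences of effects, 5 were no longer past the threshold.

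Members called moved as follows. In macrophages DESeq2 and no filter gave 5 each and the stricter gate 0. In intermediate phagocytes no filter gave 4. In dendritic cells DESeq2, no filter and thinned cells gave 3 each, the stricter gate 0 and the replicate block 0. In CD8 T cells thinned cells gave 1, in regulatory T cells DESeq2 and thinned cells 1 each, and in NK cells no filter 2. In fibroblasts no filter gave 4, and the replicate block, the stricter gate and thinned cells 1 each. With 1 library left out, the counts ran from 1 to 5 in monocytes and macrophages together and in macrophages, 0 to 5 in monocytes, 2 to 4 in intermediate phagocytes, 3 to 3 in dendritic cells, 2 to 4 in CD8 T, 1 to 3 in regulatory T, 1 to 2 in NK cells and 0 to 4 in fibroblasts. The lone library of a group is then taken to vary like the others.

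Genes called moved more. DESeq2 gave 1386 in monocytes and macrophages together, 964 in macrophages, 53 in dendritic cells, 12 in regulatory T cells, 13 in NK cells and 244 in fibroblasts. No filter gave 2299, 1792, 855 (monocytes), 650 (intermediate phagocytes), 283 (dendritic), 271 (CD8 T), 184 (regulatory T), 181 (NK) and 645 (fibroblasts). The stricter gate gave 0 in macrophages, 140 in monocytes, 117 in intermediate phagocytes, 0 in dendritic cells, 21 in CD8 T, 17 in regulatory T and 18 in NK cells. Thinned cells gave 647 in monocytes and macrophages together, 204 in macrophages, 132 in intermediate phagocytes, 33 in dendritic and 10 in CD8 T cells, and other size factors 32 in dendritic cells. Beside the counts of 0 by edgeR, 2231 genes in macrophages and 586 in dendritic cells under the stricter gate, and 617 in dendritic cells under the replicate block, had an unadjusted p under 0.05. With 1 library left out, counts ran from 11 to 1102, 2 to 532 (macrophages), 13 to 884 (monocytes), 10 to 761 (intermediate), 72 to 429 (dendritic), 164 to 316 (CD8 T), 75 to 147 (regulatory T), 8 to 234 (NK) and 0 to 492 (fibroblasts). The called differences of effects numbered 8 with no filter and 1 to 5 with 1 library left out.

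Libraries of the same number did not deviate together (correlations from -0.164 to 0.0535), so the numbers were not taken to pair them. The replicate block gave 520 genes in macrophages, 413 in monocytes, 460 in intermediate phagocytes, 0 in dendritic, 139 in CD8 T, 124 in regulatory T and 212 in NK cells. A crossed pairing, chosen after the data were seen, gave 505 genes and 3 members in intermediate phagocytes and 405 genes and 4 members in dendritic cells. CTRL neutrophils, pDC and CD4 T cells were too few to test.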

Other observations

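Classes with under 20 cells in a library were not tested. By mean over the LNP-Sirpa libraries, Ly6a stood highest in plasmacytoid dendritic cells, makers of type I interferon, though not in replicate 2. They held 5053 and 4427 CPM in LNP-Sirpa and 425 and 277 CPM in CTRL libraries, from 7 and 3 cells against 12 and 9. The same cells held Ly6c2 at 4681 and 6917.5 CPM against 915 and 323 CPM. Mast cells and basophils held Ly6a at 4034 and 4515 CPM in LNP-Sirpa and 2714 and 1918 CPM in CTRL libraries, the second LNP-Sirpa value from 2 cells. CD4 T cells other than regulatory T cells held Ly6a at 2170.5 and 1315 CPM against 707 and 756 CPM, and Ly6i, with 25 and 25 UMIs, at 48.4 and 47.5 CPM against 0 UMIs in both CTRL libraries.

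In each dendritic subset the groups were apart in Ly6a, while the subsets overlapped in part. cDC1, which present antigen to CD8 T cells, held 622 and 1022 CPM in LNP-Sirpa and 14.4 and 34.0 CPM in CTRL libraries. cDC2 held 742 and 2829 CPM against 163 and 334 CPM, and mature dendritic cells 515 and 295.5 CPM against 89.0 and 9.64 CPM. These subsets hold 11 to 125 cells a library. The CTRL values rest on 3 and 18 Ly6a UMIs in cDC1 and 61 and 5 in mature dendritic cells. That of cDC1 in LNP-Sirpa replicate 2 rests on 26 UMIs.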
